A study of Mus musculus with 28 samples.

Results

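The Elovl genes encode the 7 fatty acid elongases of the mouse, Elovl1 to Elovl7. They were taken by symbol from the 22552 genes listed in each of 4 deposited expression tables of skeletal muscle satellite cells, and all 7 passed the filter on low counts in every fit. The family was chosen because Elovl4 was lower in the knockout cells in each of 3 states, and so was selected on the KO against WT values of these libraries. Those values are given below for all members as a description, with no test. Satellite cells are the stem cells of skeletal muscle. They came from WT mice on a C57Bl/6 background and from SIRT1mKO mice (KO below), in which Cre knocked in at Pax7 deletes the floxed exon 4 of Sirt1, the gene of a deacetylase that depends on NAD. FI cells were isolated by FACS and are labelled quiescent, Cul cells were proliferating in Ham's F-10 with bFGF at 12.5 ng/ml and 20% fetal bovine serum, and Diff cells had spent 24 hours in the same basal medium with 2% horse serum. Polyadenylated RNA was sequenced from 18 libraries: 5 WT_FI, 3 KO_FI, 4 WT_Cul, 2 KO_Cul, 2 WT_Diff and 2 KO_Diff. The labels state no age. Nor do they state that replicate libraries are of different mice or dishes. In FI and in the table of WT states, how far the spread on which the p-values rest is technical was not tested. Levels of Xist or of the Y-linked Ddx3y, given below, differ between the libraries of a group in each state.

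Fatty acids made by fatty acid synthase or taken from food are lengthened in the endoplasmic reticulum by a cycle of condensation, reduction, dehydration and a last reduction, which adds a pair of carbons at each turn. The elongases catalyse the condensation, the step that sets the rate, and differ in the chains they accept. Elovl1, Elovl3, Elovl6 and Elovl7 act mainly on saturated and monounsaturated chains, Elovl2 and Elovl5 on polyunsaturated chains, and Elovl4 makes the longest chains, known best from retina, skin and brain.

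The promoters of Elovl4, the member with the widest KO difference within the FI, Cul and Diff tables, and of Elovl6, the member that edgeR called higher in WT_Diff than in WT_Cul cells, are shown as the 250 bases before the annotated start in RefSeq (GRCm38.p6), with capitals marking matches to CANNTG or GGGCGG on either strand. Elovl4 lies on the minus strand, with this window at chr9:83806306-83806555, and Elovl6 on the plus strand, with its window at chr3:129532136-129532385.
Elovl4: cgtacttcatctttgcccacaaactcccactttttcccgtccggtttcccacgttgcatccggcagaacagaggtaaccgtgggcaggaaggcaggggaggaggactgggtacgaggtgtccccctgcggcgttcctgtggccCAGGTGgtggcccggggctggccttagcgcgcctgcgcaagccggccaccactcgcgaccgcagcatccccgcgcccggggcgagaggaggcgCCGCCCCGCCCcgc
Elovl6: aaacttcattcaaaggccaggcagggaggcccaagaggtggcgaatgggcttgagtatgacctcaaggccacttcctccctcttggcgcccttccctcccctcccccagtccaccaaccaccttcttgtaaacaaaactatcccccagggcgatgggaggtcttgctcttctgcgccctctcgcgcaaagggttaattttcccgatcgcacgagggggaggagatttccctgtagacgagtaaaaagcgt

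The Elovl4 window had 69.6% G and C and 25 CpG, more than 89.3% of the 32851 promoters in the reference. It held 1 CANNTG, the letters that MyoD-type factors bind, and 2 GGGCGG, which read as CCGCCC in the printed strand and share 1 base. In all promoters, 66.2% held CANNTG and 32.7% held GGGCGG. The Elovl6 window had 56.4% G and C and 11 CpG, with no match to either motif. Of the other motifs searched, CCAAT was in 33.8% of all promoters. The TATAAA motif was in 12.4%. Neither was in the Elovl4 or the Elovl6 window. The reference held windows for 6 of the 7 members, and Elovl3 was not among them. A match describes letters only.

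The libraries lay in 4 tables: FI (3 WT, 3 KO), Cul (2 and 2), Diff (2 and 2) and a table of WT states (2 WT_FI and 2 WT_Cul), with 24254119 to 82825550 fragments per library. The Sirt1 level, summed over all its exons, was 59.8 ± 18.8 CPM (SD, n = 3) in WT_FI and 48.5 ± 13.4 in KO_FI (n = 3), and 64.5 ± 3.28 in WT_Cul and 40.4 ± 9.24 in KO_Cul (n = 2 each). On a scale joining all 18 libraries, it was 58.4 and 29.7 CPM in WT_Diff and 46.3 and 31.6 in KO_Diff, which overlapped. This total does not check the deletion of exon 4. CPM are counts relative to the TMM-scaled size of the library. The WT_FI libraries of the table of WT states stood apart from those of the FI table. Their 10 satellite cell markers (Pax7, Myf5, Calcr and others) summed to 2480 to 2766 CPM, against 6159 to 8128 in the WT_FI and 6472 to 7542 in the KO_FI libraries of the FI table. Their 8 fibroblast markers summed to 19940 to 28890 CPM against 4674 to 6849 in the FI table, their 6 pericyte and smooth muscle markers to 17270 to 25320 against 2891 to 7136, and their 5 Schwann cell markers to 1909 to 1996 against 686 to 985. In the Diff table, the second library of each genotype stood apart: the 8 differentiated muscle markers summed to 127 and 11140 CPM in WT_Diff and to 304 and 24250 in KO_Diff. Xist, which is expressed from the inactive X chromosome of female cells, was at 1.06 and 2287 CPM in the WT_Cul and 0.36 and 1217 in the KO_Cul libraries of the Cul table, and at 1234 and 0.32 CPM in WT_Diff and 786 and 0.14 in KO_Diff. In each of these 4 groups 1 library thus had almost no Xist and the other much, and the libraries with the same number matched between the genotypes. The Y-linked Ddx3y was at 24.0 CPM or more in all 8. In the FI table and the table of WT states, Xist was at 403 to 2916 CPM in every library. Ddx3y was at 76.0, 21.3 and 112 CPM in WT_FI and 101, 48.3 and 38.1 in KO_FI of the FI table. In the table of WT states, Ddx3y was at 60.9 and 179 CPM in WT_FI and 52.5 and 54.6 in WT_Cul, where Xist was at 403 and 1749.

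Elovl4 was 8.75 times lower in KO than in WT freshly isolated cells, 3.86 times lower in proliferating cells and 3.40 times lower in differentiation medium. In the FI table the WT_FI libraries had 29.0, 22.2 and 32.3 CPM, and the KO_FI libraries 3.27, 3.67 and 2.60. The lowest WT_FI library of that table was far above the highest KO_FI library. The log2 difference, KO minus WT, was -3.13 (SE 0.22).

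In culture, the Elovl4 level was 20.2 CPM in each WT_Cul library of the Cul table and 5.77 and 4.71 CPM in KO_Cul. The log2 difference was -1.95 (SE 0.26), and the groups did not overlap. Beside it, all 8 fibroblast markers were higher in KO_Cul (median 1.73), 0 of them called. Of these, 2 had an unadjusted p under 0.05 in edgeR's test, beside 0.802% of all genes. Their sums overlapped, at 76.8 to 195 CPM in WT_Cul and 121 to 248 in KO_Cul. In differentiation medium Elovl4 was at 21.4 and 11.1 CPM in WT_Diff and 6.34 and 3.21 CPM in KO_Diff, a log2 difference of -1.76 (SE 0.63). In each genotype, the library with the high muscle marker sum and almost no Xist was the lower of the pair. All 8 differentiated muscle markers (median 1.21), all 8 fibroblast markers (0.78; sums of 283 to 425 CPM in WT_Diff and 589 to 707 in KO_Diff) and the 4 measured of 6 pericyte and smooth muscle markers (1.73) were higher in KO_Diff, 0 of them called. At an unadjusted p under 0.05 in edgeR's test there were 2 of the fibroblast markers and 0 of the others, beside 0.186% of all genes. The part of these markers in the Elovl4 differences was not tested. The groups did not overlap here either, and whether the KO difference itself changes between states was not tested.

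**Figure D1:**
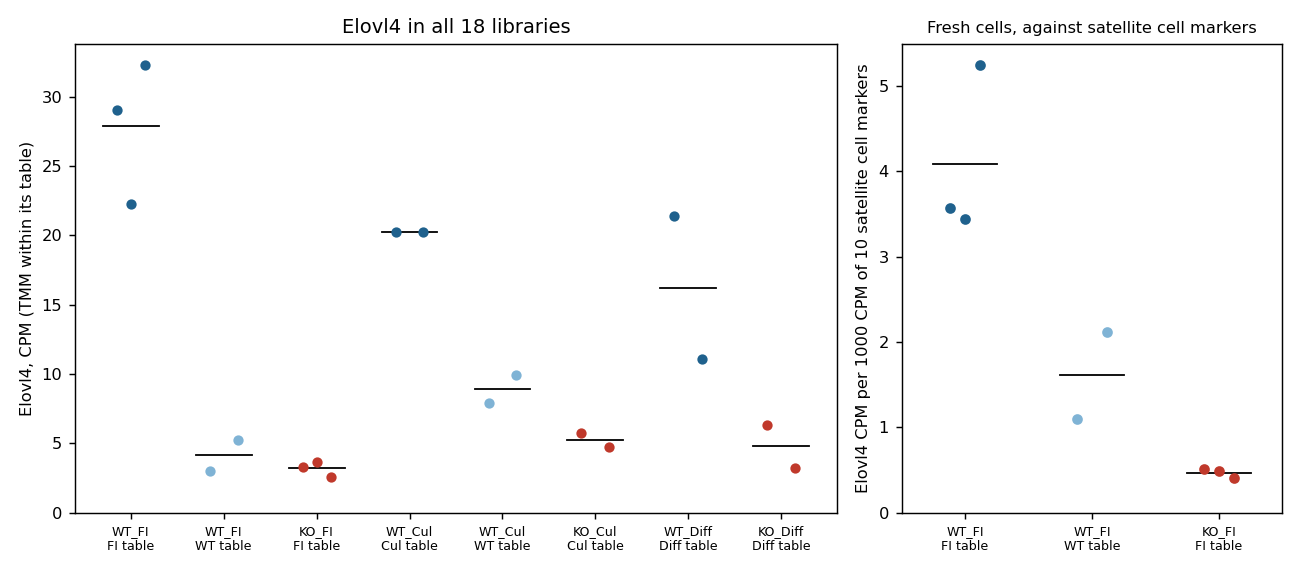
Elovl4 in all 18 libraries. Left: CPM (TMM-scaled within each table), each point 1 library and each line the group mean. WT libraries of the FI, Cul and Diff tables (dark blue) sit at 11.1 CPM or higher, the KO libraries (red) at 6.34 or lower and the WT libraries of the table of WT states (light blue) at 3.03 to 9.90. Right: in freshly isolated cells, Elovl4 CPM per 1000 CPM of the 10 satellite cell markers, where the 3 sets of libraries do not overlap. The lower marker sums of the table of WT states raise its values on the right.

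The WT libraries of the table of WT states did not share the high Elovl4 level. Their WT_FI libraries had 3.03 and 5.27 CPM, near KO_FI, and their WT_Cul libraries 7.88 and 9.90 CPM. On a scale joining all 18 libraries, the mean of WT_FI was 6.35 times higher in the FI table than in the table of WT states, and 501 of 11864 genes (4.22%) differed by as much. For WT_Cul the ratio was 2.70, and 13.5% of 10843 genes differed by as much. With these 2 WT_FI libraries in place of the 3 of the FI table, the KO minus WT log2 difference was -0.46, and with all 5 it was -2.53. With the other 2 WT_Cul libraries it was -0.48, and with all 4 it was -1.37. With the 2 WT_FI libraries exchanged, the Elovl4 difference was the smallest of the 7 members in FI. Set against the satellite cell markers, Elovl4 was 3.57, 3.44 and 5.25 CPM per 1000 marker CPM in the WT_FI libraries of the FI table, 1.10 and 2.12 in those of the table of WT states, and 0.505, 0.486 and 0.401 in KO_FI. On this scale the KO_FI libraries were the lowest, and those of the table of WT states lay between. The marker sums moved with the table, and their part in the Elovl4 level was not tested. In bulk RNA, fewer cells of a type and less RNA per cell cannot be told apart.

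For all genes, edgeR's quasi-likelihood test with Benjamini-Hochberg adjustment called 0 of 15146 genes (0%) in KO_FI against WT_FI, 0 of 13963 (0%) in Cul and 0 of 14482 (0%) in Diff, so no member was called. At an unadjusted p under 0.05 the counts were 621 (4.1%), 112 (0.802%) and 27 (0.186%), and DESeq2 called 117 (0.773%), 3 (0.0215%) and 0 genes, Elovl4 among them in FI and in Cul. The groups did not overlap for 1, 2 and 2 of the 7 members in FI, Cul and Diff, against 9.22%, 23% and 13.2% of all genes. Elovl4 is in each of these counts by choice, and nothing is read from it. The other non-overlapping members were Elovl1 in Cul and Elovl7 in Diff.

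Within the FI, Cul and Diff tables, Elovl1, Elovl6 and Elovl3 differed between the genotypes by at most 0.41 on the log2 scale. Elovl1, which makes very long saturated and monounsaturated chains, was at 53.3, 58.5 and 53.2 CPM in WT_FI and 55.2, 52.5 and 49.6 CPM in KO_FI, a log2 difference of -0.07 (SE 0.10). In Cul the WT libraries had 88.4 and 68.2 CPM and the KO libraries 108.5 and 91.5, a log2 difference of 0.35 (SE 0.23). In Diff the difference was -0.15 (SE 0.52), with each genotype spread widely (108 and 213 CPM for WT, 106 and 183 for KO). Elovl6, which lengthens palmitate to stearate, differed by 0.20 (SE 0.23) in FI, -0.12 (SE 0.29) in Cul and -0.25 (SE 0.47) in Diff on the log2 scale. Elovl3, known from brown fat, skin and liver, differed by 0.41 (SE 0.37), 0.30 (SE 0.39) and 0.12 (SE 0.60).

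Elovl7 showed its largest KO difference in Diff, where WT libraries had 3.46 and 6.37 CPM and KO libraries 2.33 and 2.44. The log2 difference was -1.04 (SE 0.59), a gap in which 1 WT library carried most. In FI and Cul it was 0.17 (SE 0.29) and -0.27 (SE 0.76). Of the polyunsaturated elongases, Elovl5 differed by -0.27 (SE 0.15), 0.15 (SE 0.21) and -0.16 (SE 0.42) in FI, Cul and Diff. Elovl2 differed by -0.32 (SE 0.51), -0.11 (SE 0.99) and -0.93 (SE 1.11), with at most 1.27 CPM in any library of these 3 tables. These values depended on the WT libraries. With the 2 WT_FI libraries of the table of WT states in place of the 3, the FI differences were 1.92 for Elovl3, 0.78 for Elovl6, -0.56 for Elovl1, -1.34 for Elovl5, -1.77 for Elovl2 and -1.27 for Elovl7, the last with its sign turned. With the 2 WT_Cul libraries of that table, those of Elovl1, Elovl3 and Elovl5 in Cul turned to -0.20, -0.35 and -0.08. Genotype and table cannot be told apart in these exchanged fits. Several of the smaller differences also changed sign with 1 library left out, among them Elovl2, Elovl6 and Elovl7 in Cul and Elovl1, Elovl3, Elovl5 and Elovl6 in Diff.

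The median over the 7 members was -0.07, -0.11 and -0.25, beside -0.03, 0.02 and -0.01 over all genes tested.

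**Figure D2:**
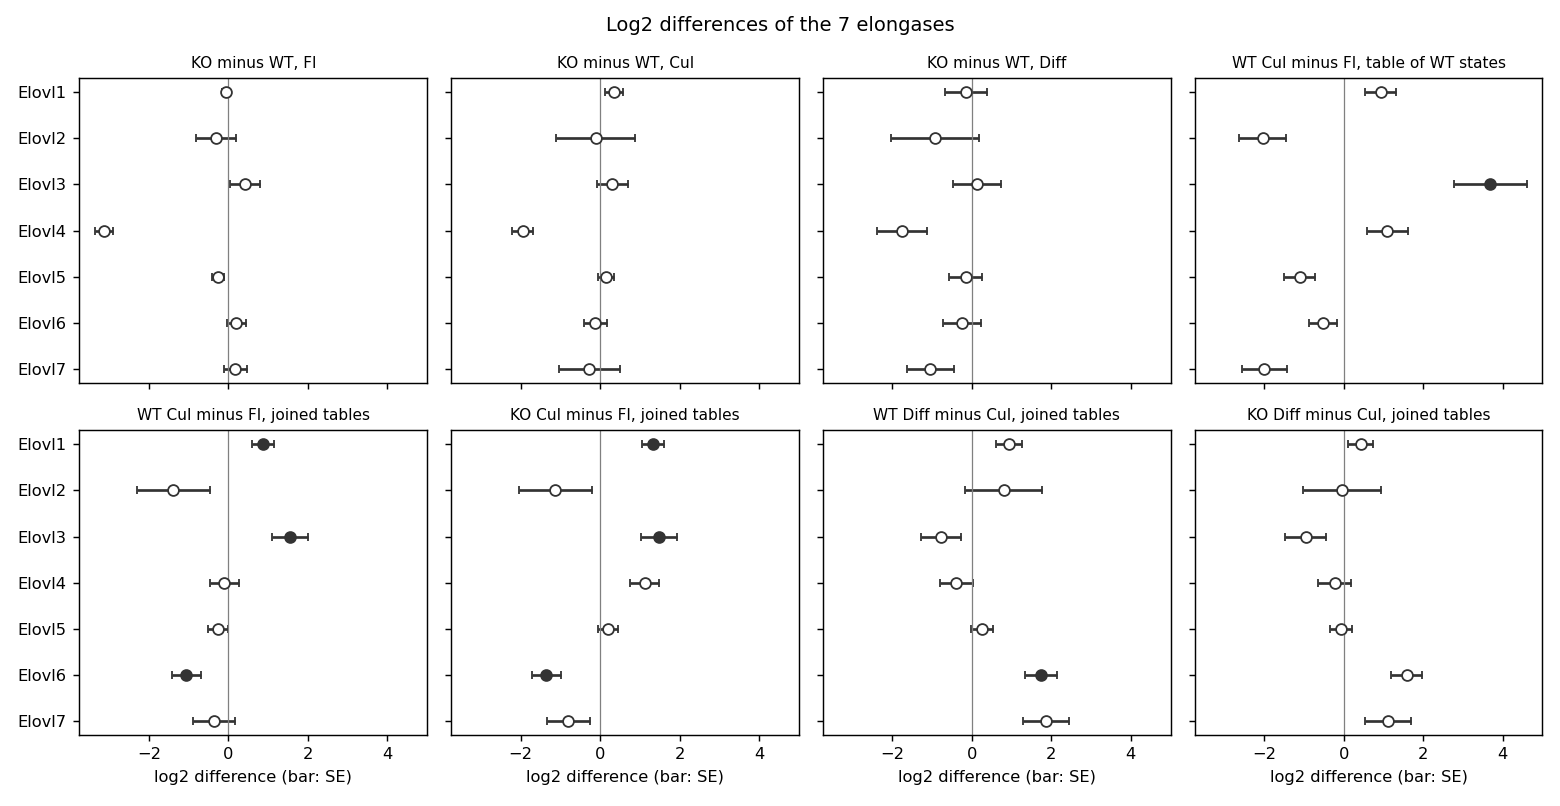
Log2 differences of Elovl1 to Elovl7 in 8 comparisons, points with SE as bars. Filled points passed an adjusted p of 0.05 in edgeR; the KO minus WT panels and Elovl4 are drawn open, as no call is made for them. Elovl4 lies far left in the 3 KO minus WT panels, at -3.13, -1.95 and -1.76.

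Between genes, levels were compared as FPKM, fragments relative to transcript length and library size, which the authors scaled within each table. Elovl1 and Elovl5 made up 76.9% to 93% of the FPKM summed over the family in every library. In freshly isolated cells Elovl5 led, at 42.7 ± 7.39 FPKM in WT_FI (SD, n = 3) against 32.0 ± 1.59 for Elovl1, and 35.3 ± 1.16 against 30.4 ± 1.57 in KO_FI. In the Cul and Diff tables the order was the other way round, with Elovl1 at 48.3 ± 8.34 FPKM and Elovl5 at 29.6 ± 0.30 in WT_Cul (n = 2). The ratio of Elovl5 to Elovl1 was 1.07 to 2.57 in all 8 FI libraries and 0.218 to 0.693 in all 10 Cul and Diff libraries. These ratios set genes against each other within a library and so do not depend on how libraries are scaled.

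Elovl6 came next in freshly isolated WT cells, at 9.88 ± 1.43 FPKM, and did not differ beyond the spread from Elovl4, at 9.07 ± 1.70. In KO_FI, Elovl4 stood at 1.03 ± 0.17 FPKM, below Elovl6 at 11.3 ± 3.07 and Elovl3 at 2.03 ± 0.35. In WT_Cul of the Cul table Elovl4 was the third of the family, at 6.94 ± 0.05 FPKM, and in KO_Cul the fifth, at 1.82 ± 0.29. In WT_Diff, Elovl4 at 5.52 ± 2.59 FPKM ranked below Elovl6 at 13.6 ± 7.09. Elovl7 and Elovl2 had the lowest FPKM of the family in the 6 groups of the FI, Cul and Diff tables, with Elovl2 at 0.07 to 0.24 on average. In the WT_FI libraries of the table of WT states, Elovl3 was the lowest instead, at 0.52 ± 0.26 FPKM, and overlapped Elovl2 at 0.64 ± 0.01.

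**Figure D3:**
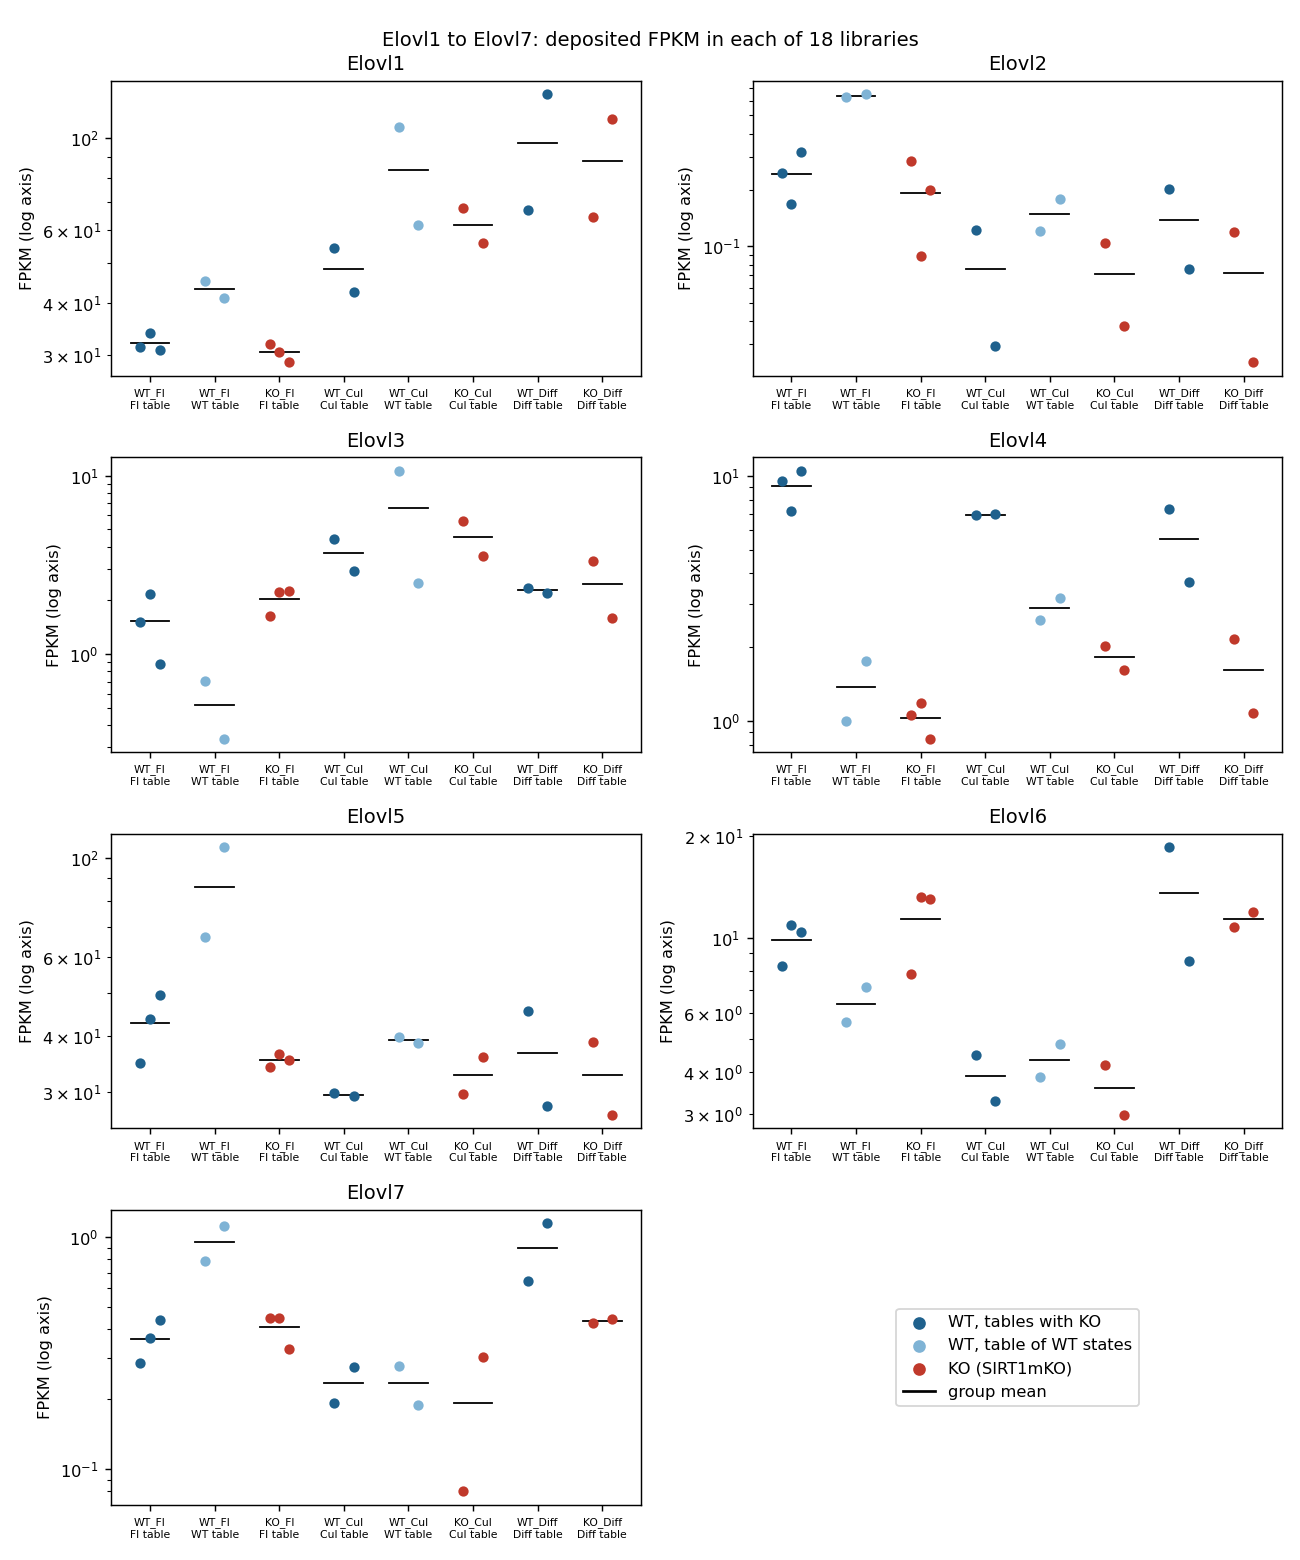
FPKM of each elongase in each library on log axes, with lines at group means. Elovl1 and Elovl5 stay above 26 FPKM in all 18 libraries, and Elovl2 stays below 0.65. Elovl5 is highest in the WT_FI libraries of the table of WT states, at 66.6 and 105.7 FPKM.

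From quiescence to culture, Elovl3 was higher in WT cells and was called in both comparisons below. Elovl1 was higher and Elovl6 lower in both, each called only in the fit of the joined tables. In the table of WT states, whose libraries were not used to choose the family, Elovl3 had 1.28 and 0.605 CPM in the WT_FI libraries, against 19.6 and 4.68 in those of WT_Cul. The log2 difference, WT_Cul minus WT_FI, was 3.69 (SE 0.92; edgeR's quasi-likelihood test, adjusted p = 0.0387). It was the member called of 7, where 28.6% of 14680 genes were called (12.6% higher, 16% lower). The call rested on few fragments and was lost without the second WT_FI library (log2 difference 3.25, edgeR adjusted p = 0.0861) and with limma on log2(FPKM + 1) (2.08, limma adjusted p = 0.0657). Without the first WT_Cul library, the higher of the pair, the difference was 2.28 and still called, and without the second it was 4.38. The other 6 members did not pass edgeR's test. Their groups did not overlap either, but neither did those of 70.9% of all genes. DESeq2, which called 39.3% of all genes, called 4 members.

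Elovl2 and Elovl7 lay just outside the threshold in that comparison. Elovl7 had 4.46 and 6.30 CPM in the WT_FI libraries, against 1.60 and 1.11 in those of WT_Cul, a log2 difference of -1.99 (SE 0.56, edgeR adjusted p = 0.0517). Elovl2 had 2.47 and 2.53 CPM, against 0.480 and 0.728, a difference of -2.04 (SE 0.59, edgeR adjusted p = 0.055). Elovl5 differed by -1.10 (SE 0.39, edgeR adjusted p = 0.0858), Elovl6 by -0.51 (SE 0.36, 0.323), Elovl1 by 0.93 (SE 0.38, 0.121) and Elovl4 by 1.10 (SE 0.51, 0.16). In this comparison 7 of 8 fibroblast markers and 5 of 6 pericyte and smooth muscle markers were called lower in WT_Cul, with medians of -4.70 and -6.01 on the log2 scale. Elovl5, Elovl7 and Elovl2 were also higher in these WT_FI libraries than in those of the FI table, with ratios of the FI table to the table of WT states of 0.475, 0.367 and 0.367 on the joined scale. The part of the marker sums in these values was not tested.

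The 3 tables with KO libraries were also joined in 1 fit of 14 libraries, where state and table cannot be told apart and the median of all 16698 genes was -0.16 for WT_Cul minus WT_FI and -0.19 for KO_Cul minus KO_FI. In WT cells, Elovl3 rose from 2.46 ± 1.05 CPM in FI (n = 3) to 7.22 ± 2.29 in Cul (n = 2), a log2 difference of 1.55 (SE 0.46, edgeR adjusted p = 0.0147). Elovl1 rose from 48.3 ± 2.42 to 88.5 ± 18.02 CPM (0.87, SE 0.28, edgeR adjusted p = 0.0235), and Elovl6 fell from 54.6 ± 8.14 to 26.2 ± 6.59 CPM (-1.06, SE 0.37, edgeR adjusted p = 0.0307). These 3 of 7 members were called where 53.5% of all genes were. In KO cells the same 3 genes were called in the same direction: Elovl1 by 1.33 (SE 0.28, edgeR adjusted p = 0.00266), Elovl3 by 1.47 (SE 0.46, 0.0181) and Elovl6 by -1.35 (SE 0.37, 0.0102), where 54.9% of all genes were called. Leaving out the first WT_Cul library ended all 3 WT calls (edgeR adjusted p = 0.175 for Elovl1, 0.125 for Elovl3 and 0.0593 for Elovl6). The Elovl1 call in WT was lost in 3 of 14 fits with 1 library left out (the first WT_Cul and the first and the third WT_FI libraries), with DESeq2 (adjusted p = 0.0547) and with RLE size factors (edgeR adjusted p = 0.0615). That of Elovl6 was lost in 4 of 14 (either WT_Cul library and the second and the third WT_FI libraries), with edgeR adjusted p-values up to 0.187. In KO cells the Elovl3 call was lost without the first KO_Cul (edgeR adjusted p = 0.155) or the first KO_FI library (0.0584), and the Elovl6 call without the second KO_Cul library (0.0867), while that of Elovl1 passed in all 14 such fits. In the same fit, 8 of 8 fibroblast (median -6.93), 6 of 6 pericyte and smooth muscle (-10.47), 8 of 8 endothelial (-5.21) and 8 of 10 satellite cell markers (-2.29) were called lower in WT_Cul than in WT_FI. In KO cells the same numbers were called lower, with medians of -4.99, -10.13, -5.63 and -2.53. Their part in the member differences was not tested.

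Elovl4, described here without a call since these libraries chose it, was 24.5 ± 4.58 CPM in WT_FI and 22.8 ± 0.47 in WT_Cul on this scale, a log2 difference of -0.10 (SE 0.37). In KO cells it was 2.80 ± 0.48 CPM in FI and 6.07 ± 1.14 in Cul, a difference of 1.12 (SE 0.37). Elovl5, the main polyunsaturated elongase of these cells, differed by -0.25 (SE 0.26, edgeR adjusted p = 0.419) in WT and 0.19 (SE 0.25, 0.538) in KO. Elovl7 differed by -0.36 (SE 0.52, 0.573) and -0.80 (SE 0.53, 0.22), and Elovl2 by -1.39 (SE 0.92, 0.223) and -1.13 (SE 0.92, 0.309).

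From culture to differentiation medium, Elovl6 was higher in each genotype. In the joined fit it rose in WT cells from 26.2 ± 6.59 to 87.0 ± 46.8 CPM, a log2 difference of 1.73 (SE 0.40, edgeR adjusted p = 0.0449), the member called where 3.11% of genes were. That call lies at the threshold: it was lost in 11 of 14 fits with 1 library left out. These were the fits without any 1 of the FI or Cul libraries or without the first WT_Diff library. With an FI library left out, edgeR adjusted p-values ran up to 0.0759. In KO cells Elovl6 was at 24.7 ± 6.52 CPM in Cul and 73.9 ± 4.57 in Diff, a difference of 1.58 (SE 0.40) that did not pass (edgeR adjusted p = 0.0511), where 4.13% of genes did. In that comparison 0 members passed with edgeR, 1 had an unadjusted p under 0.05 (21.6% of all genes) and DESeq2 called 1 (14.1% of all genes), Elovl6 itself. Elovl7 differed by 1.87 (SE 0.58, edgeR adjusted p = 0.102) in WT and 1.12 (SE 0.57, 0.289) in KO, and Elovl1 by 0.93 (SE 0.32, 0.124) and 0.43 (SE 0.32, 0.474).

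The genes around the elongases in fatty acid metabolism, in 7 lists, had no called difference between the genotypes. In each KO against WT comparison, 0 genes of any list were called, as of all genes. At an unadjusted p under 0.05 the lists together held 4, 0 and 0 genes in FI, Cul and Diff, beside 4.1%, 0.802% and 0.186% of all genes. The 4 in FI were 1 of 7 measured elongation cycle genes, 1 of 8 desaturases and 2 of 11 acyl-CoA synthetases. Tecrl, Acsl6 and Slc27a1 below are among them, and nothing is read from these counts. The list medians lay between -0.18 and 0.36 on the log2 scale. Of the other steps of the elongation cycle, Tecrl, related to the last reductase, was at 5.54 ± 1.00 CPM in WT_FI and 2.59 ± 0.97 in KO_FI (-1.09, SE 0.34), and the dehydratase Ptpla (Hacd1) at 20.7 ± 13.5 and 13.3 ± 6.48 (-0.63, SE 0.69). Of the acyl-CoA synthetases, which activate fatty acids, Slc27a1 was at 100.1 ± 22.1 CPM in WT_FI and 178 ± 35.7 in KO_FI (0.83, SE 0.22), and Acsl6 at 3.29 ± 0.65 and 6.10 ± 0.81 (0.89, SE 0.23). The FI values did not carry over to the other states. Slc27a1 differed by -0.12 (SE 0.53) in Cul and by -0.63 (SE 0.44) in Diff, where its groups did not overlap. Acsl6 differed by -0.02 (SE 0.45) in Cul, and Tecrl did not pass the filter on low counts there. Whether the FI differences of Tecrl, Slc27a1 and Acsl6 depend on the WT libraries used was not tested. In Cul the widest of the named differences was that of the ceramide synthase Lass6 (Cers6), at -0.67 (SE 0.42). Lass6 was at 22 ± 3.18 CPM in WT and 13.9 ± 7.23 in KO.

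From quiescence to culture in the table of WT states, the ketoreductase of the elongation cycle, Hsd17b12, rose from 51.2 ± 3.50 to 217 ± 41.6 CPM (2.09, SE 0.36, edgeR adjusted p = 0.0176). It was the gene called among 6 measured of the elongation cycle list. In this comparison edgeR called 28.6% of all genes (12.6% higher, 16% lower), so nothing is read from the counts per list given here. In the fatty acid synthesis list, Me1, which supplies NADPH, rose by 1.80 (SE 0.36, edgeR adjusted p = 0.0234), while Acacb, the acetyl-CoA carboxylase tied to the control of oxidation, fell by 3.80 (SE 0.46, 0.0117), 2 of 6 genes called. Among 10 measured acyl-CoA synthetases, Acsl5 rose by 1.39 (SE 0.33, edgeR adjusted p = 0.0335) and Acsl4, which prefers arachidonate, by 1.57 (SE 0.43, 0.0492), and Acsl1 fell by 1.43 (SE 0.37, 0.0416). Among the measured genes of peroxisomal oxidation, which shortens very long chains, the transporter Abcd2 (-4.32, SE 0.74, edgeR adjusted p = 0.0182) and the enzyme Ehhadh (-2.67, SE 0.58, 0.0287) fell. The ceramide synthase Lass4 (Cers4) fell by 2.09 (SE 0.36, edgeR adjusted p = 0.0176), the gene called of 10 in its list, and the lipogenic regulators Ppara and Insig1 fell by 2.34 (SE 0.54, 0.0324) and 1.29 (SE 0.33, 0.0413), 2 of 14. No desaturase of 7 passed edgeR's test, although 4 had an unadjusted p under 0.05, with a list median of -1.30 beside 0.06 over all genes. All of these differences stand beside the fall of the fibroblast and pericyte markers given above, whose part was not tested.

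The desaturases, which put double bonds into the chains that elongases lengthen, were, of the 7 lists, the one with the most calls from culture to differentiation medium in WT cells. In the joined fit 7 of 8 were above 0 and 4 of 8 were called higher, where 3.11% of all genes were called. Of the 4, Fads2 rose from 4.34 ± 2.71 to 93.3 ± 0.85 CPM (4.43, SE 0.50, edgeR adjusted p = 0.00398), Scd2 by 2.89 (SE 0.53, 0.0191), Scd1 by 2.75 (SE 0.60, 0.0386) and Fads1 by 1.29 (SE 0.24, 0.0229). They were named after their values were seen, and their calls were not followed with 1 library left out. The number of genes called in this comparison varied widely over such fits, as given in the last section. The WT_Diff libraries also stood apart from each other in muscle markers and Xist, as given above. The list median of the desaturases was 2.02, beside 0 over all genes. In KO cells all 8 were above 0 and 3 of 8 were called higher, namely Fads2, Scd1 and Scd2, where 4.13% of all genes were called. Of the 14 lipogenic regulators, 7 were above 0 there and 3 were called higher. Insig1, which retains the SREBP escort protein in the endoplasmic reticulum when sterols are plentiful, rose by 2.75 (SE 0.37, edgeR adjusted p = 0.0069) in WT. None of the 8 differentiated muscle markers passed edgeR's test in this comparison, although each had an unadjusted p under 0.05, with a median of 7.27. In the same joined fit, 4 of 8 desaturases were called lower in WT_Cul than in WT_FI, Fads2, Scd1 and Scd2 among them, with a median of -2.27. As 53.5% of all genes were called there, nothing is read from this count.

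**Figure D4:**
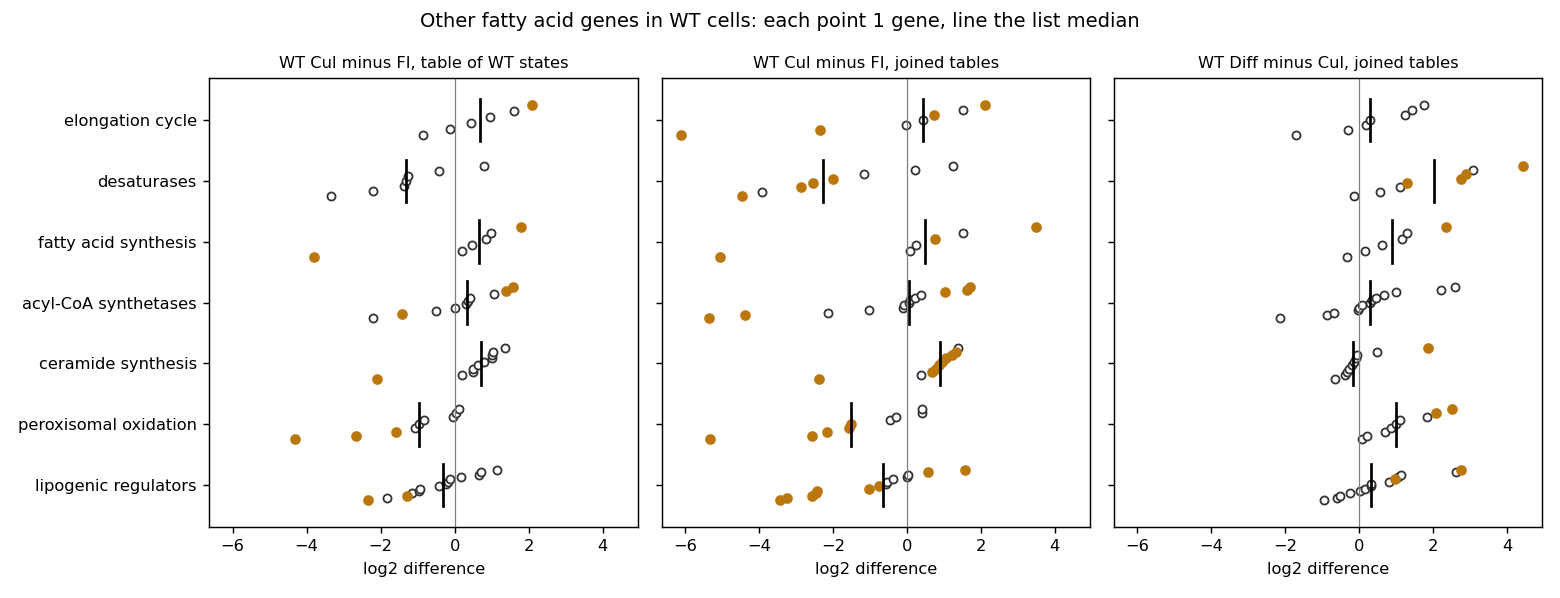
Log2 differences of the genes of 7 fatty acid lists in WT cells, each point 1 measured gene, filled where edgeR's adjusted p was under 0.05, with a line at each list's median. Desaturases lie mostly left of 0 from FI to Cul (medians -1.30 and -2.27) and mostly right of 0 from Cul to Diff (median 2.02).

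The genes whose levels went most with Elovl4 over the 18 libraries, after the mean of each table was subtracted, were Bmpr1b (Pearson's r 0.755), Zfp711 (0.727), Nt5e (0.703), Gpr125 (0.685), Cdr2 (0.669) and Gcnt4 (0.659), of 11097 genes compared. The libraries share their tables and their genotypes, so these values describe and test nothing. Without the table of WT states they were 0.803, 0.766, 0.754, 0.763, 0.665 and 0.627. Zfp711, a zinc finger protein, was at 5.67 ± 1.19 CPM in WT_FI and 2.07 ± 0.54 in KO_FI, and at 2.38 ± 0.27 in WT_Cul and 0.501 ± 0.103 in KO_Cul. Bmpr1b, a type I BMP receptor, was at 2.93 ± 0.85 and 1.503 ± 0.33 CPM in FI, and at 7.82 ± 4.13 and 3.02 ± 0.43 in Cul. In Diff the WT and KO groups of each gene of this list overlapped. Those of Nt5e and Gcnt4 also overlapped in FI, and those of Cdr2 and Gcnt4 in Cul. The log2 difference, KO minus WT, of Cdr2 was -0.75 in FI and -0.002 in Cul. That of Gpr125 was -0.76 in FI and 0.001 in Diff. Among the other elongases r with Elovl4 ran from -0.07 (Elovl7) to 0.19 (Elovl2).

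The genes next to Elovl4 in RefSeq's order (GRCm38.p6) are Hmgn3, Lca5 and Sh3bgrl2 on the side of lower coordinates and Ttk, Bckdhb and Tent5a on the other. The first 5 are listed in the tables by these symbols. Sh3bgrl2 differed between the genotypes by -0.36 (SE 0.31) in FI, -0.43 (SE 0.27) in Cul and -0.28 (SE 0.58) in Diff. Ttk, a mitotic checkpoint kinase, was at 4.25 ± 2.07 CPM in WT_FI and 1.74 ± 0.55 in KO_FI (-1.28, SE 0.45), and differed by -0.16 (SE 0.36) in Cul and 0.16 (SE 1.08) in Diff. Lca5, Hmgn3 and Bckdhb differed by between -0.37 and 0.26 in the 3 comparisons. All of these values are smaller in size than the Elovl4 difference of the same state.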

How the data were processed

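The deposited tables hold, per gene and library, estimated counts of fragments and FPKM that the authors scaled within each table, both in Cuffdiff's format per the file headers. Cuffdiff, TopHat, Bowtie, SICER and mm9 are named in the submitters' processing notes; versions and roles: not given in the sources used here. The tables number libraries from 0 and do not give the labels' replicate numbers, so libraries are given in table order. The letter that marks the proliferating state in the tables was matched by elimination. Replicate libraries differed by a chi-square of at least 26.77 per degree of freedom, far above sampling noise, and were all kept. There were 0 unused columns of per-sample values. The 10 ChIP and input samples were not analysed here.

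Estimated counts were rounded. Genes not marked OK in every library were left out (22 in FI, 12 in Cul, 19 in Diff, 27 in the table of WT states and 36 in the joined fit). Each table was fitted with edgeR 4.0.16 (R 4.3.3; TMM, filterByExpr, robust quasi-likelihood F test, Benjamini-Hochberg over all genes, threshold 0.05), and the code was tested on simulated data. Alternatives were DESeq2 1.42.0, RLE size factors, other filters, limma 3.58.1 on log2(FPKM + 1) and log2(FPKM + 0.1), a block on the library number, and each library left out. Exchanging WT libraries between tables was added after seeing the data.

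Library numbers paired the WT and KO libraries of the FI table: deviations from group means correlated at 0.866, 0.683 and 0.584 for the same number, and each library correlated best with its own number. The pairing comes from the data, not the labels.

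The members, the 7 fatty acid lists and 9 marker lists were chosen with earlier results of these data known. Besides the members and Sirt1, the text names per list up to 3 genes with the smallest p in the table of WT states, up to 2 with the largest KO difference at 5 CPM or more, the 6 genes most like Elovl4 (log2 CPM, prior count 2) and 3 neighbours on each side. Cers1 was not matched. 1 gene that this rule names is not reported here. No source used here says that strand was used in counting, and reads from closely similar genes can be split between them.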

Additional observations from a re-analysis of the deposited data

How the results depend on the processing

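Elovl4 was chosen for being lower in KO in the FI, Cul and Diff tables, and its groups did not overlap there. Fits on the same libraries could thus scarcely turn its direction, and nothing is read from a kept direction in them. The members counted below for KO_Cul minus KO_FI include Elovl4 where it passed, and nothing is read from that. The Elovl4 KO minus WT difference kept its direction under every alternative run. Its log2 value was -2.30 in FI and -1.50 in Cul with limma on log2(FPKM + 1), -2.53 (FI, all 5 WT_FI libraries) and -1.37 (Cul, all 4 WT_Cul libraries) with both tables, and -0.46 (FI) and -0.48 (Cul) with only the WT libraries of the table of WT states. With 1 library left out it ran from -3.27 to -3.01 in FI, -2.12 to -1.81 in Cul and -2.34 to -1.20 in Diff. With the replicate block it was -3.12, -1.95 and -1.77. In Cul, Diff and the table of WT states, each with 2 libraries a group, same-numbered libraries correlated at 0.732, 0.787 and 0.387. The labels do not say what a number marks; in Cul and Diff the same-numbered libraries also match in Xist, present in 1 pair and almost absent from the other, so they share more than the number, from the data and not the design. With the block, 6176 genes were called in the table of WT states (4200 without it), 147 in Diff, 3 in Cul and 0 in FI. DESeq2 called 117 genes in KO_FI against WT_FI and 3 in Cul, and edgeR called 304 and 307 with the WT libraries of the table of WT states in place of the others, where genotype and table cannot be told apart.

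For WT_Cul minus WT_FI in the table of WT states, the members called were 4 with DESeq2, 3 at 1 CPM or more, 3 with limma on log2(FPKM + 0.1), 2 on log2(FPKM + 1), 3 with the block, and 0 to 4 with 1 library left out; genes called then ran from 2063 (without the second WT_FI library) to 8050 (without the second WT_Cul library). In the joined fit with 1 library left out, genes called ran from 5863 to 9743 for WT_Cul minus WT_FI and from 6368 to 9960 for KO_Cul minus KO_FI, with 0 to 3 and 2 to 4 members. For WT_Diff minus WT_Cul they ran from 5 (without the first WT_Cul library) to 3829 (without the first WT_Diff library), with 0 to 2 members, beside 520 genes; DESeq2 called 2254 genes and 2 members. For KO_Diff minus KO_Cul they ran from 0 (without the first KO_Cul library) to 1683 (without the first KO_Diff library), with 0 to 1 members, beside 690 genes; DESeq2 called 2303 genes, and DESeq2, RLE factors, the 1 CPM filter and no filter each called 1 member. Some member differences changed sign with 1 library left out, over these ranges: for KO minus WT Elovl2 from -0.74 to 0.013 in FI; Elovl2 from -0.99 to 1.25, Elovl3 from -0.062 to 0.63, Elovl5 from -0.014 to 0.28, Elovl6 from -0.38 to 0.13 and Elovl7 from -1.56 to 0.38 in Cul; Elovl1 from -0.56 to 0.42, Elovl3 from -0.51 to 0.58, Elovl5 from -0.46 to 0.22 and Elovl6 from -0.69 to 0.40 in Diff; for KO_Diff minus KO_Cul Elovl2 from -1.61 to 0.89 (also 0.69), Elovl4 from -0.80 to 0.20 and Elovl5 from -0.37 to 0.19 (also 0.05); for WT_Diff minus WT_Cul Elovl2 from -0.054 to 2.20, Elovl4 from -0.96 to 0.044 and Elovl5 from -0.13 to 0.58; and for WT_Cul minus WT_FI in the joined fit Elovl4 from -0.24 to 0.016. The causes were not tested. Elovl2 counts were low (7 to 79 fragments), which limits its precision.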
